A study of Mus musculus with 12 samples.

Results

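The acid-base machinery of the kidney's intercalated cells was followed through 10 genes: Atp6v1b1, Atp6v1g3, Atp6v0d2, Atp6v0a4, Slc4a1, Slc26a4, Foxi1, Aqp6, Car2 and Atp4a. They were picked by name from a table of 35275 genes, each had 1 row, and all 10 passed the filter on low counts in every comparison. Whole-kidney mRNA was sequenced from 12 C57BL/6J mice aged 6 months, 4 in each of 3 groups and with 2 males and 2 females a group. WT mice were controls, maintained as C57BL/6J mice and not described as littermates of the other groups. In every comparison with WT, an effect of genotype and one of breeding line cannot be told apart. RC/RC mice were homozygous for the hypomorphic RC allele of Pkd1, a knock-in that gives slowly progressive cystic kidneys. RC/RC:Casp1KO mice carried the same Pkd1 genotype and were also homozygous for 1 germline deletion in Casp1, the gene for the inflammasome protease Caspase-1, so the Casp1 loss was in every cell and came from a single edited allele. No group carried the Casp1 deletion on a WT Pkd1 background. Mice are named here by a letter for the group (W for WT, R for RC/RC, K for RC/RC:Casp1KO) and the number in the table. Each library held between 18019819 and 24869454 reads counted to genes.

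Intercalated cells sit among the principal cells of the connecting tubule and collecting duct. Type A cells secrete acid with a vacuolar proton pump (V-ATPase) and an H,K-ATPase in the apical membrane and return bicarbonate to the blood through the anion exchanger AE1, while type B cells secrete bicarbonate through pendrin and turn the pump the other way. Carbonic anhydrase II supplies the protons and bicarbonate for both, and the forkhead factor Foxi1 is needed for the cells to form.

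The design sets cystic kidneys against WT ones, and cystic kidneys without Casp1 against those with it. Atp4a, the catalytic subunit of the gastric-type H,K-ATPase, was 15.4-fold lower in RC/RC than in WT kidneys and 20.5-fold lower in RC/RC:Casp1KO than in WT kidneys. By edgeR's quasi-likelihood test on each pair of groups, it was the only one of the 10 called in any comparison. From WT to RC/RC, DESeq2 also called Atp6v0a4 and Slc26a4, and edgeR with all 12 mice in one fit also called Atp6v0a4. In RC/RC against WT, the edgeR test of the pair called 1 of 10 genes, against 12.9% of the 15243 genes tested. The count was also 1 of 10 in RC/RC:Casp1KO against WT, where 2.03% of 15346 genes were called. Between RC/RC:Casp1KO and RC/RC, edgeR's quasi-likelihood test called 0 of 10, against 11.6% of 15428 genes. In that comparison 2 of the 10 had an unadjusted p under 0.05 and DESeq2 also called 0. The study found significantly less cystic disease with Casp1 loss in females only. Both sexes were pooled here, and an effect in either alone was not tested. Over all genes tested, the share with an unadjusted p under 0.05 was 29.2% from WT to RC/RC, 31.7% from RC/RC to RC/RC:Casp1KO and 21.8% from WT to RC/RC:Casp1KO, against which the unadjusted counts given for the gene lists can be read. By direction, the shares of all genes called higher and lower were 9.76% and 3.18% from WT to RC/RC, 7.23% and 4.41% from RC/RC to RC/RC:Casp1KO, and 1.13% and 0.893% from WT to RC/RC:Casp1KO. A gene was called at a Benjamini-Hochberg adjusted p under 0.05 over all genes tested.

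Most point estimates were negative in the comparisons with WT. In RC/RC against WT, 9 of the 10 log2 fold changes were negative, with a median of -0.59 beside -0.02 over all genes tested. An unadjusted p under 0.05 was found for 6 of the 10, 5 with a negative estimate and Foxi1 with a positive one. From RC/RC to RC/RC:Casp1KO, 4 were positive and 6 negative, with a median of -0.08 beside -0.03 over all genes. Against WT, 9 of the RC/RC:Casp1KO estimates were negative too, with a median of -0.32 beside 0.01. Each pair of these comparisons shares a group of mice. In whole kidney, fewer intercalated cells and less RNA per cell cannot be told apart.

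**Figure D1:**
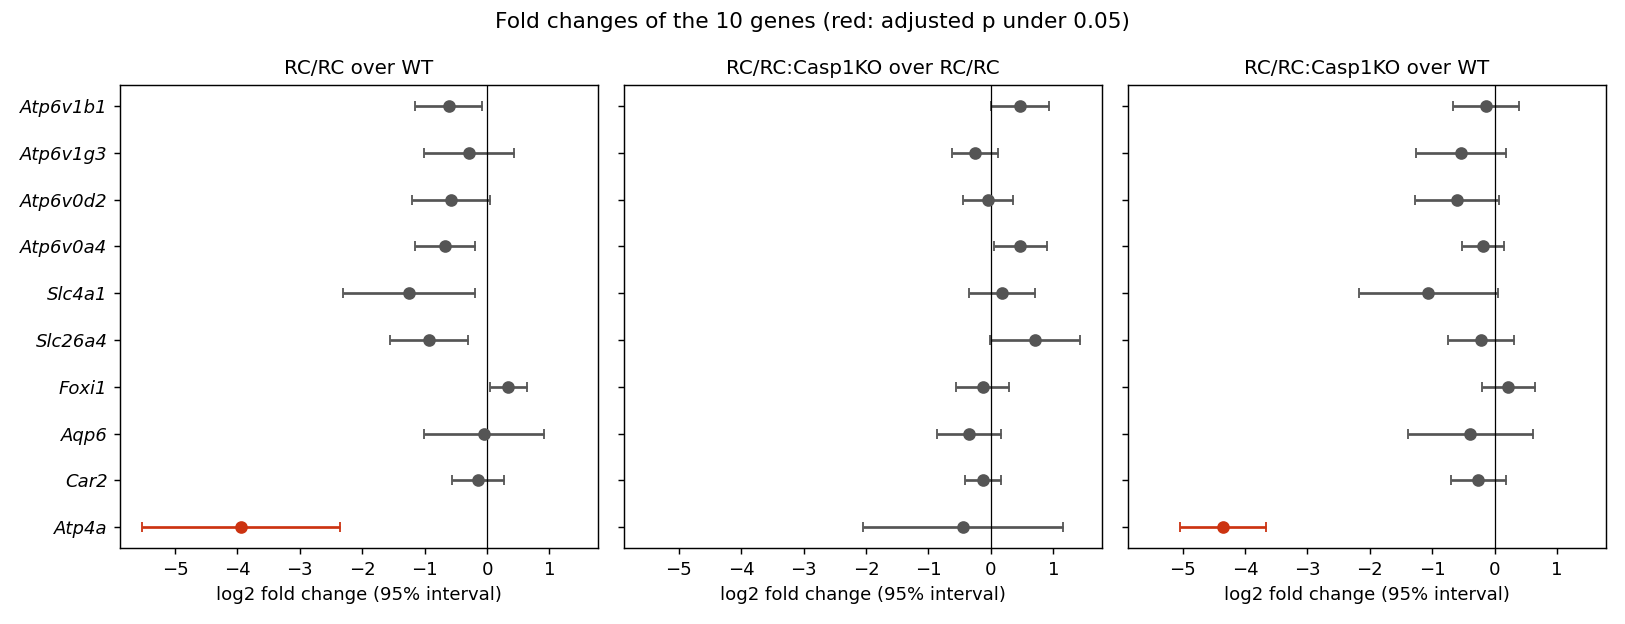
Log2 fold change (x axis) of each of the 10 genes (y axis) in the 3 comparisons, with 95% intervals from edgeR over 8 mice each; red marks an adjusted p under 0.05. Atp4a stands at -3.94 against WT in RC/RC and at -4.36 in RC/RC:Casp1KO, and in these comparisons the interval of every other gene lies nearer to 0.

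Compared per transcript length, as reads scaled to gene length and library size (FPKM), Car2 was the most abundant of the 10 in all groups, at 207 ± 52.7 FPKM in WT, 200 ± 12.1 in RC/RC and 189 ± 19.2 in RC/RC:Casp1KO (SD, n = 4, as throughout). Between mice, each gene is given in CPM, reads scaled to library size alone. Next in level in each group came Atp6v0a4, at 83.5 ± 15.3 FPKM in WT, and Atp6v1b1, at 69.3 ± 20.7 FPKM in WT, whose ranges across mice overlapped. In WT the order went on through Aqp6 (43.6 ± 32.5 FPKM), Atp6v1g3 (37.5 ± 19.8), Slc26a4 (33.9 ± 5.47), Slc4a1 (26.2 ± 22.5), Atp4a (19.7 ± 6.43) and Atp6v0d2 (19.4 ± 8.81), each overlapping its neighbour. Foxi1 was last in WT at 10.2 ± 1.26 FPKM, and its highest mouse (11.3) was below the lowest Atp6v0d2 value (12.1). WT mouse W2 set part of this order: over the other 3 WT mice Slc26a4 (33.0 FPKM) came before Atp6v1g3 (28.3) and Aqp6 (27.9), followed by Atp4a (16.8), Atp6v0d2 (15.5) and Slc4a1 (15.0). Atp4a, the eighth in WT and the seventh without W2, was the tenth in both RC/RC groups: in RC/RC kidneys its highest FPKM was 3.66, below the lowest value of any other gene of the set (7.45).

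**Figure D2:**
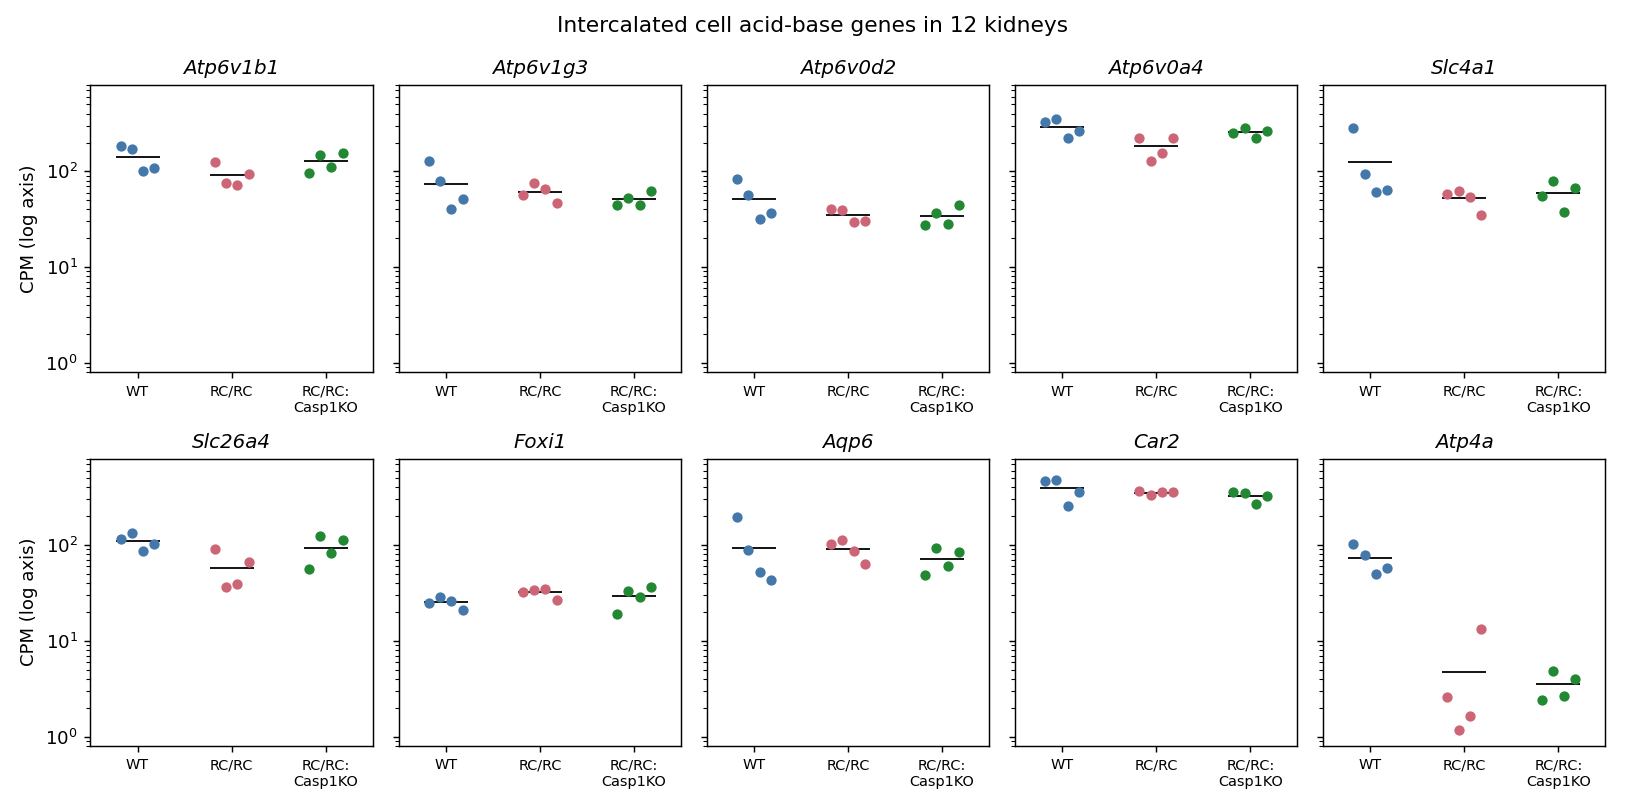
Reads scaled to library size (CPM, log axis) of the 10 genes in each mouse (points) of the WT, RC/RC and RC/RC:Casp1KO groups, 4 mice each; black lines are group means. The 8 mice with the RC genotype lie between 1.16 and 13.4 CPM for Atp4a, below all 4 WT mice, while the groups overlap for the other 9 genes.

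Both genetic labels were looked at before the set. Casp1 stood at 2.06, 1.29, 1.30 and 1.41 CPM in WT mice W2, W3, W4 and W6, at 3.37, 3.84, 4.26 and 2.62 CPM in RC/RC mice R105, R139, R140 and R143, and at 0.665, 0.385, 1.05 and 0.664 CPM in RC/RC:Casp1KO mice K42, K60, K70 and K105. Casp1 was 5.09-fold lower in RC/RC:Casp1KO than in RC/RC kidneys (log2 fold change -2.35 ± 0.32 SE, edgeR adjusted p = 0.00514), with no overlap, counted over the whole gene and not over the deleted bases alone. Against WT it was 2.31-fold higher in RC/RC kidneys (1.21 ± 0.25, adjusted p = 0.0142). From WT to RC/RC:Casp1KO, Casp1 was called in 0 of the 8 fits that left out 1 mouse (edgeR adjusted p from 0.121 to 0.276). Of 7 other settings, 1 called it there (DESeq2, adjusted p = 0.0481). Pkd1 mRNA was at 52.9 CPM on average in WT, 55.3 in RC/RC and 71.4 in RC/RC:Casp1KO. The RC allele changes the protein, so this level does not check the label.

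The H,K-ATPase showed the largest difference of the set. Atp4a (chr7:30712209-30725535, plus strand, mm10) encodes the catalytic subunit that gives acid secretion in the stomach and takes part in potassium recovery in the collecting duct. Its CPM was 103, 78.9, 50.5 and 58.1 in WT mice W2, W3, W4 and W6, resting on 2156, 1649, 1011 and 1240 reads. In RC/RC mice R105, R139, R140 and R143 it was 2.56, 1.16, 1.62 and 13.4 CPM, on 66, 22, 30 and 311 reads. In RC/RC:Casp1KO mice K42, K60, K70 and K105 it was 2.38, 4.89, 2.68 and 4.03 CPM, on 43, 127, 59 and 85 reads. All 8 mice of the RC genotype were below all 4 WT mice, and RC/RC mouse R143 was the highest of the 8. Atp4a was lower in RC/RC than in WT by edgeR (log2 fold change -3.94 ± 0.71 SE, 95% interval -5.53 to -2.35, adjusted p = 0.00729) and lower in RC/RC:Casp1KO than in WT (-4.36 ± 0.30, -5.04 to -3.67, adjusted p = 0.000157). Groups that do not overlap were found for 19.3% of all genes tested in RC/RC against WT and for 13.7% in RC/RC:Casp1KO against WT. The difference between the 2 RC/RC groups was -0.44 ± 0.71 on the log2 scale (95% interval -2.04 to 1.16, adjusted p = 0.703). Without RC/RC mouse R143 that difference was 0.98, with an adjusted p of 0.105, so its sign rests on 1 mouse, and the log2 fold change from WT to RC/RC became -5.33.

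Genes beside Atp4a were looked at for the same difference. Within 100 kb of it the table lists 18 genes, 7 of which were tested. edgeR called 0 of the 7 in RC/RC or RC/RC:Casp1KO against WT, beside 12.9% and 2.03% of all genes. For 7 genes, 0 is near those shares. Their log2 fold changes ran from -1.73 to 0.33 and from -1.14 to 1.14. From WT to RC/RC, Sbsn was at -1.73 (edgeR adjusted p = 0.0783) and Haus5 at -0.90 (adjusted p = 0.0523). This window was chosen after the values of Atp4a had been seen. By contrast, Atp12a (chr14:56365068-56388551), which encodes the non-gastric or colonic H,K-ATPase catalytic subunit and is known from the collecting duct, rose in RC/RC kidneys. Its CPM was 0.622, 0.192, 0.250 and 0.937 in WT mice W2, W3, W4 and W6, on 4 to 20 reads, and 5.27, 3.31, 3.08 and 4.08 CPM in RC/RC mice R105, R139, R140 and R143, on 57 to 136 reads. All RC/RC mice were above all WT mice (log2 fold change 2.95 ± 0.45 SE, edgeR adjusted p = 0.00367). It was called in all 6 alternatives that tested it, at 2.93 to 3.05 in 5 of them and at 0.84 with limma on log2(FPKM + 1), where the added 1 shrinks the change of a gene this low. It was 0.443, 0.847, 5.45 and 1.14 CPM in RC/RC:Casp1KO mice K42, K60, K70 and K105, so mouse K70 lay above every RC/RC mouse, K105 just above the highest WT mouse and the other 2 within the WT range. Mouse K70 also had the highest summed macrophage and osteoclast markers of its group, at 486 CPM against 247 to 305 in the other 3, and their part in Atp12a was not tested. The Atp12a difference between the RC/RC groups did not pass the test (-0.99 ± 0.65, adjusted p = 0.325), nor did that between RC/RC:Casp1KO and WT (1.98 ± 0.84, adjusted p = 0.214). Atp4a and Atp12a together summed to 50.7 to 104 CPM in WT mice and to 4.47 to 17.4 CPM in RC/RC mice. CPM is not scaled to gene length, and whether Atp12a makes up for Atp4a was not tested. Atp4b, the beta subunit that pairs with Atp4a in the stomach, had at most 4 reads in any library and was not tested.

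**Figure D3:**
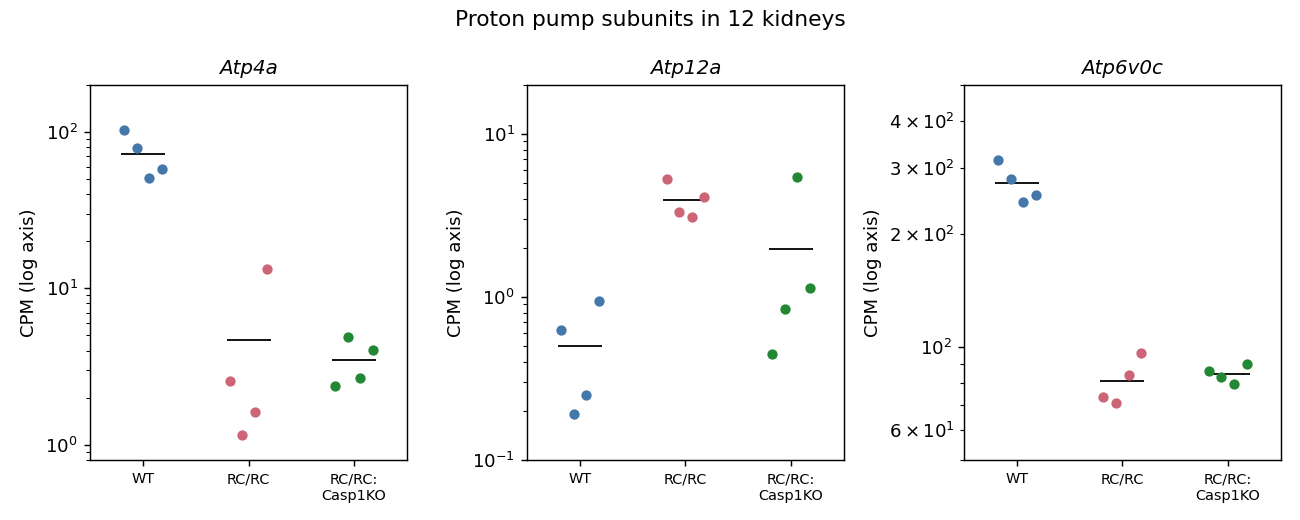
CPM (log axes, each panel with its own range) of the H,K-ATPase catalytic subunits Atp4a and Atp12a and of the V-ATPase subunit Atp6v0c in each of the 12 mice; black lines are group means. Atp4a and Atp6v0c are lower in all 8 mice of the RC genotype, and Atp12a is higher in all 4 RC/RC mice and in RC/RC:Casp1KO mice K70 and K105 than in any WT mouse.

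The V-ATPase has a cytosolic V1 sector that splits ATP and a membrane V0 sector that passes protons, and intercalated cells use their own forms of several subunits. Atp6v1b1 (chr6:83743017-83758809) encodes the B1 subunit of V1, whose loss gives renal tubular acidosis with deafness. It was at 184, 171, 99.8 and 108 CPM in WT mice W2, W3, W4 and W6, at 125, 76.2, 72.7 and 95 in RC/RC mice R105, R139, R140 and R143, and at 95.5, 148, 111 and 155 in RC/RC:Casp1KO mice K42, K60, K70 and K105. The lowest WT mice overlapped RC/RC mouse R105, and the log2 fold changes were -0.62 ± 0.24 SE from WT to RC/RC (edgeR adjusted p = 0.124), 0.47 ± 0.21 from RC/RC to RC/RC:Casp1KO (adjusted p = 0.155) and -0.14 ± 0.23 from WT to RC/RC:Casp1KO (adjusted p = 0.754). None passed the test.

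Atp6v0a4 (chr6:38048483-38124586, minus strand), the a4 subunit of V0 and another gene of distal renal tubular acidosis, had its group means in the same order. Its CPM was 326, 350, 224 and 265 in WT mice W2, W3, W4 and W6, 225, 129, 156 and 224 in RC/RC mice R105, R139, R140 and R143, and 249, 285, 225 and 262 in RC/RC:Casp1KO mice K42, K60, K70 and K105. All RC/RC mice were at or near the lowest WT value or below it. The log2 fold change was -0.67 ± 0.21 SE from WT to RC/RC (edgeR adjusted p = 0.0694) and 0.47 ± 0.19 from RC/RC to RC/RC:Casp1KO (adjusted p = 0.124). It passed the threshold in the first of these with DESeq2 (adjusted p = 0.0165) and with all 12 mice in one fit (0.0308). Atp6v0a4 shares 6454 bases of its span with Tmem213 on the other strand and 1413 with D630045J12Rik on its own strand, and the strand setting of the counting is not given in the sources used here, so its counts are uncertain to that extent.

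The other pair of subunits was not called by edgeR in any comparison. Atp6v1g3 (chr1:138273738-138289460), the G3 subunit of V1, was at 128, 78.6, 40.7 and 50.9 CPM in WT mice W2, W3, W4 and W6, at 46.9 to 74.8 in RC/RC and at 44.0 to 62.2 in RC/RC:Casp1KO mice. Its log2 fold change from WT to RC/RC was -0.29 ± 0.32 SE (edgeR adjusted p = 0.569) and turned to 0.093 without WT mouse W2. Atp6v0d2 (chr4:19876841-19922605, minus strand), the d2 subunit of V0, was at 83.1, 56.8, 31.4 and 36.8 CPM in WT mice, at 29.8 to 40.9 in RC/RC and at 27.2 to 44.3 in RC/RC:Casp1KO mice. WT mouse W2 was the highest of 12 for both, and Atp6v0d2 differed by -0.57 ± 0.28 on the log2 scale from WT to RC/RC (adjusted p = 0.206; -0.26 without W2) and by -0.04 ± 0.18 between the RC/RC groups (adjusted p = 0.890).

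Atp6v0d2 is also used by macrophages and osteoclasts, and markers of those cells moved with the groups. Of 13 such markers, 11 rose in RC/RC against WT and 0 fell, with a median log2 fold change of 1.67. Their summed level was 215 to 241 CPM in the WT mice, 422 to 525 in the RC/RC mice and 247 to 486 in the RC/RC:Casp1KO mice. The complement gene C1qa, for example, went from 22.1 CPM in WT to 73.5 in RC/RC (log2 fold change 1.73 ± 0.19 SE, edgeR adjusted p = 0.000688), C1qb from 21.2 to 70.1 and C1qc from 16.8 to 55.2, while Gpnmb went from 0.347 to 5.22 CPM. From RC/RC to RC/RC:Casp1KO, 4 of the 13 fell (Ctsk, Mmp9, C1qb and C1qa, of which C1qa and C1qb each held in 1, Mmp9 in 2 and Ctsk in 5 of the 8 fits that left out 1 mouse), and from WT to RC/RC:Casp1KO edgeR called 0, with 6 at an unadjusted p under 0.05. Atp6v0d2 had a negative estimate where those markers were higher. Their part in its level was not tested.

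The widely expressed V-ATPase subunits, shared by lysosomes in every cell, were measured beside the cell-specific ones. Of 18 of them, 0 rose and 1 fell in RC/RC against WT, with a median of -0.19. edgeR called 0 in RC/RC:Casp1KO against RC/RC (3 at an unadjusted p under 0.05), and 1 fell in RC/RC:Casp1KO against WT, with a median of -0.31. In that comparison 13 of the 18 had an unadjusted p under 0.05 and 8 were lower with no overlap between the groups, against 6 and 3 from WT to RC/RC. Of all genes tested, 13.7% did not overlap between RC/RC:Casp1KO and WT, in either direction, and 19.3% between RC/RC and WT. The one that fell both times was Atp6v0c, which encodes the proteolipid c subunit of the proton-carrying ring. It was at 315, 281, 244 and 255 CPM in WT mice W2, W3, W4 and W6, at 73.7, 71.0, 84.2 and 96.1 in RC/RC mice R105, R139, R140 and R143, and at 86.1, 83.1, 79.9 and 89.9 in RC/RC:Casp1KO mice K42, K60, K70 and K105. The groups of the RC genotype lay close together and far below WT (log2 fold change -1.76 ± 0.14 SE, edgeR adjusted p = 0.000194, and -1.68 ± 0.10, adjusted p = 8.44e-05).

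Atp6v0c lies at chr17:24163866-24169702, 380.2 kb from Pkd1 (chr17:24549950-24596514), the gene changed in both RC/RC groups. Among the 113 genes listed within 1 Mb of Pkd1, 71 were tested in RC/RC against WT and 16 were called, 22.5% beside 12.9% over all genes, 8 higher and 8 lower. From WT to RC/RC:Casp1KO 8 of 72 were called, 11.1% beside 2.03%. The share was also above that of all genes between the 2 RC/RC groups, which have the same Pkd1 genotype, with 13 of 73 called, 17.8% beside 11.6%. The nearby Rnps1, for example, was lower in both groups, with log2 fold changes of -1.46 (edgeR adjusted p = 6.52e-05) and -1.43 (adjusted p = 0.000102). This window was chosen after the values had been seen. For Atp6v0c, an effect of the Pkd1 allele and one of the DNA around it cannot be told apart in this design. Atp6v1a, which encodes the catalytic A subunit, was not called in any comparison, at 659 CPM in WT, 489 in RC/RC and 551 in RC/RC:Casp1KO.

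Ratios within each mouse set each cell-specific subunit against its widely expressed form, on the FPKM scale. Atp6v0a4 was 5.11 ± 1.34 times Atp6v0a1 in WT, 3.84 ± 0.734 times in RC/RC and 4.82 ± 0.44 times in RC/RC:Casp1KO kidneys. The other 3 stood below their partners: Atp6v1b1 was 0.448 ± 0.128 of Atp6v1b2 in WT, 0.412 ± 0.128 in RC/RC and 0.524 ± 0.166 in RC/RC:Casp1KO. Atp6v1g3 was 0.268 ± 0.114 of Atp6v1g1 in WT and 0.257 ± 0.0724 in RC/RC, and Atp6v0d2 was 0.286 ± 0.0974 of Atp6v0d1 in WT and 0.199 ± 0.0675 in RC/RC. The group ranges overlapped for each of the 4 ratios.

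The anion exchangers mark the 2 forms of the cell. Slc26a4 (chr12:31519827-31559969, minus strand) encodes pendrin, the apical chloride-bicarbonate exchanger of type B cells. It was at 117, 133, 87.0 and 103 CPM in WT mice W2, W3, W4 and W6, at 90.3, 36.4, 39.3 and 66.0 in RC/RC mice R105, R139, R140 and R143, and at 56.4, 123, 83.5 and 114 in RC/RC:Casp1KO mice K42, K60, K70 and K105. Only RC/RC mouse R105 reached into the WT range. The log2 fold change from WT to RC/RC was -0.93 ± 0.28 SE (95% interval -1.55 to -0.31, edgeR adjusted p = 0.0567), just outside the threshold. DESeq2 called it (adjusted p = 0.00797), as did edgeR without RC/RC mouse R105 (-1.23, adjusted p = 0.0172). From RC/RC to RC/RC:Casp1KO it was 0.70 ± 0.32 (adjusted p = 0.167), and from WT to RC/RC:Casp1KO -0.21 ± 0.23 (adjusted p = 0.609).

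Slc4a1 (chr11:102348824-102366203, minus strand) encodes AE1, the basolateral exchanger of type A cells and also the band 3 protein of red cells. It was at 283, 93.5, 60.7 and 63.2 CPM in WT mice W2, W3, W4 and W6, at 58.7, 62.2, 54.5 and 35.3 in RC/RC mice R105, R139, R140 and R143, and at 55.0, 78.8, 37.5 and 67.0 in RC/RC:Casp1KO mice K42, K60, K70 and K105. WT mouse W2 stood far above the other 11. The log2 fold change from WT to RC/RC was -1.25 ± 0.47 SE (edgeR adjusted p = 0.115), and it was -0.47 without WT mouse W2. In RC/RC:Casp1KO against WT it was -1.06 ± 0.49 (adjusted p = 0.245), and -0.28 without that mouse. Within each mouse, Slc4a1 was 0.749 ± 0.59 of Slc26a4 by FPKM in WT, 0.724 ± 0.384 in RC/RC and 0.448 ± 0.151 in RC/RC:Casp1KO, and the ranges overlapped. WT mouse W2 alone stood at 1.63, and the other 3 WT mice averaged 0.454 ± 0.0336 (SD, n = 3).

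Red-cell genes were given beside Slc4a1 for that reason. Of 10 erythroid markers, 6 were tested and 5 of the 6 fell in RC/RC against WT, with a median of -1.73. The most abundant, the beta-globin gene Hbb-bs, went from 348 to 108 CPM (log2 fold change -1.69 ± 0.25 SE, edgeR adjusted p = 0.00325), and Alas2, which starts heme synthesis in red-cell precursors, from 14.9 to 3.23 CPM (-2.22 ± 0.26, adjusted p = 0.00111). Of the 6, 4 fell from WT to RC/RC:Casp1KO, Alas2 in all 8 fits that left out 1 mouse and the globins in 1 to 3 of them, and edgeR called 0 between the RC/RC groups, with 1 at an unadjusted p under 0.05. The 10 summed to 904, 828, 645 and 476 CPM in WT mice W2, W3, W4 and W6, to 129 to 268 in RC/RC mice and to 216 to 395 in RC/RC:Casp1KO mice. WT mouse W2 was therefore highest by this sum too, but close to WT mouse W3, whereas its Slc4a1 value was well above that of mouse W3. Rhag and Rhd, which are made in red-cell precursors, had at most 4 reads in any library, with Rhag at 0 reads in all 8 mice of the RC genotype. The part of red cells in the Slc4a1 values was not tested.

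Foxi1 (chr11:34204338-34208089, minus strand), the factor that drives the intercalated cell programme, had the one positive estimate of the 10 in RC/RC against WT. It was at 25.0, 29.0, 26.0 and 21.1 CPM in WT mice W2, W3, W4 and W6, at 32.6, 34.3, 35.1 and 26.5 in RC/RC mice R105, R139, R140 and R143, and at 19.1, 33.5, 28.4 and 36.1 in RC/RC:Casp1KO mice K42, K60, K70 and K105. RC/RC mouse R143 lay among the WT mice and the other 3 were above them. The log2 fold change was 0.34 ± 0.13 SE from WT to RC/RC (edgeR adjusted p = 0.121), -0.13 ± 0.19 between the RC/RC groups (adjusted p = 0.663) and 0.22 ± 0.19 from WT to RC/RC:Casp1KO (adjusted p = 0.510), none past the threshold.

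With all mice kept, Aqp6 and Car2 had the smallest differences of the 10 between RC/RC and WT, but not in the other comparisons. Aqp6 (chr15:99601400-99605477), an aquaporin of intracellular vesicles in type A cells that passes anions, was at 194, 87.9, 52.4 and 42.7 CPM in WT mice W2, W3, W4 and W6, at 62.9 to 113 in RC/RC and at 48.4 to 92.5 in RC/RC:Casp1KO mice. Its log2 fold change from WT to RC/RC was -0.05 ± 0.43 SE (95% interval -1.01 to 0.91, edgeR adjusted p = 0.952), and 0.57 without WT mouse W2. The place of Aqp6 among the smallest differences therefore rests on that mouse. Car2 (chr3:14886426-14900769), carbonic anhydrase II, was at 464, 485, 259 and 360 CPM in WT mice and within 334 to 366 in RC/RC and 267 to 358 in RC/RC:Casp1KO mice. Its log2 fold changes were -0.15 ± 0.19 (adjusted p = 0.628), -0.12 ± 0.13 from RC/RC to RC/RC:Casp1KO (adjusted p = 0.538) and -0.26 ± 0.19 from WT to RC/RC:Casp1KO (adjusted p = 0.450). Of 11 other carbonic anhydrases tested, edgeR called 0 in RC/RC against WT (4 at an unadjusted p under 0.05), 0 between the RC/RC groups (3 at an unadjusted p under 0.05) and 1 in RC/RC:Casp1KO against WT, Car11, a family member without catalytic activity, which rose from 2.76 to 9.39 CPM (1.77 ± 0.25, adjusted p = 0.0130). Car12, which sits on the cell surface, was at 337 CPM in WT, 211 in RC/RC and 314 in RC/RC:Casp1KO, with no overlap between WT and RC/RC but an adjusted p of 0.0647.

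Across the 12 mice, 7 of the 10 genes fell into 2 blocks, with Foxi1, Car2 and Atp4a in neither. After each group's mean was removed from the log2 CPM values, Atp6v1g3, Atp6v0d2, Slc4a1 and Aqp6 had Pearson r between 0.87 and 0.93 with each other, and Atp6v1b1, Atp6v0a4 and Slc26a4 between 0.79 and 0.86. The blocks were not closed, since Atp6v1b1 had an r of 0.83 with Atp6v0d2 and 0.70 with Aqp6, while Slc26a4 had one of 0.13 with Atp6v1g3 and 0.18 with Slc4a1. Atp4a, placed in neither, had an r of 0.75 with Atp6v0a4, 0.60 with Slc26a4 and 0.50 with Atp6v1b1. The grouping was made after the values had been seen. Without WT mouse W2 the first block ran from 0.78 to 0.87 and the second from 0.79 to 0.91. These values describe 12 libraries that differ in depth and in the summed markers of other cell types. Each group holds both sexes, which the table does not name by mouse. The part of sex in the correlations was not tested, and no p is attached to them.

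**Figure D4:**
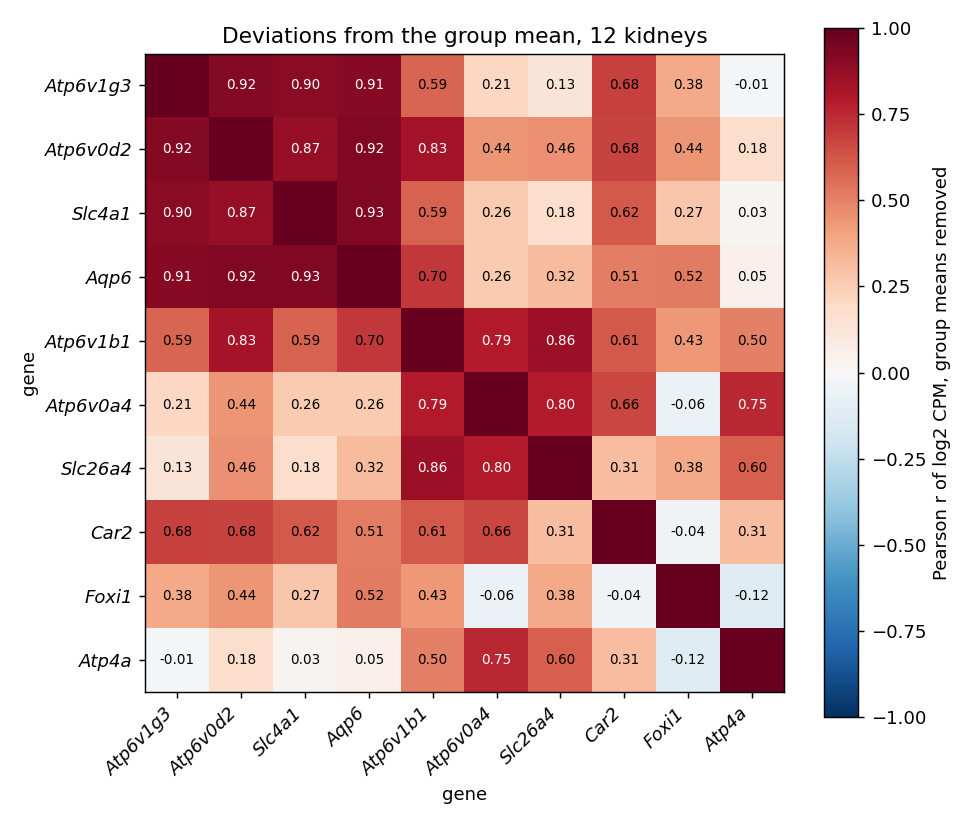
Pearson r between each pair of the 10 genes (both axes) of log2 CPM in 12 mice after the mean of each group was removed; colours and printed values run from -1 to 1. The 4 genes at the upper left correlate at 0.87 to 0.93, Atp6v1b1, Atp6v0a4 and Slc26a4 at 0.79 to 0.86, and Foxi1 and Atp4a stand apart from most of the others.

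Genes outside the set with the most similar pattern were ranked by Pearson r of log2 CPM over the same 12 mice among 15817 genes, without removing group means. For Atp6v1b1 they were Tmem52b (r = 0.967), Efcab14 (0.956), Slc16a7 (0.951), Shmt1 (0.945) and Ptgfr (0.943). Tmem52b averaged 314 CPM in WT, 147 in RC/RC and 216 in RC/RC:Casp1KO. For Foxi1 they were Rab40b (0.943), A930017K11Rik (0.927), 1110032F04Rik (0.924), Pgm2l1 (0.898) and Bhlhe41 (0.897). For Atp4a they were Eme2 (0.969), Mfn2 (0.964), Atp6v0c (0.962), Trp53bp2 (0.960) and Mark4 (0.955), of which Eme2 lies 292 kb and Atp6v0c 380.2 kb from Pkd1. No p was computed for these.

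Promoter sequence was read for the members with an entry, to see whether letters bound by forkhead factors stood before their starts. RefSeq (GRCm38.p6, the same build as mm10) held promoters for 7 of the 10, and the 250 bases before each start were searched on both strands for TGTTTAC and TATTTAC. One or the other was found in 5.76% of 32851 promoters, and TGTTTAC alone in 3.17%. Of the 7, 1 held a match: Atp6v1b1 has TGTTTAC on the plus strand from 98 to 92 bases before its start. A match describes letters and is not a binding site. Shown are the one window with a match, that of Slc26a4, which varied most closely with Atp6v1b1, and that of Atp4a. They are chr6:83742767-83743016 for Atp6v1b1 (plus strand), chr12:31559985-31560234 for Slc26a4 (minus strand) and chr7:30711959-30712208 for Atp4a (plus strand), written 5′ to 3′ along the gene with the matched letters in capitals:
Atp6v1b1: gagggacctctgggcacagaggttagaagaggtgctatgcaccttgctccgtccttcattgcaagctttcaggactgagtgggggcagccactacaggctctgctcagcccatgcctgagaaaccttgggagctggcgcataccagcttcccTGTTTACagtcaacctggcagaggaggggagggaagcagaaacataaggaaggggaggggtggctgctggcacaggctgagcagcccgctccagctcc
Slc26a4: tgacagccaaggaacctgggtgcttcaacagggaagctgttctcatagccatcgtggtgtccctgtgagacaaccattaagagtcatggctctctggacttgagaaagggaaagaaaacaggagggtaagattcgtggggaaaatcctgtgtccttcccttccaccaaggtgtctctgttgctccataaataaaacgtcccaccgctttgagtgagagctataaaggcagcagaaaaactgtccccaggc
Atp4a: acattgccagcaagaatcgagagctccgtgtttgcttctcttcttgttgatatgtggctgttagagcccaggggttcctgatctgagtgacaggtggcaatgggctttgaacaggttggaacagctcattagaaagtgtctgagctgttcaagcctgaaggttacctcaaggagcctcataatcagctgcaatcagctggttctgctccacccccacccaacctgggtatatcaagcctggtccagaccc

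Other genes of intercalated cells were counted from a list of 22, of which 20 were tested. In RC/RC against WT 1 rose and 3 fell, with a median of -0.27, and Atp12a above is the one that rose. Among those that fell were Insrr, an alkali-sensing receptor of type B cells, and Slc4a9, the basolateral AE4 transporter of type B cells. Between the RC/RC groups 2 rose with the loss of Casp1 and 0 fell, with a median of 0.21. From WT to RC/RC:Casp1KO edgeR called 0, with 1 at an unadjusted p under 0.05 and a median of -0.08.

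Insrr was at 37.5, 46.1, 40.4 and 51.3 CPM in WT mice W2, W3, W4 and W6, at 28.8, 17.5, 16.4 and 23.7 in RC/RC mice R105, R139, R140 and R143, and at 37.8, 58.1, 50.4 and 64.6 in RC/RC:Casp1KO mice K42, K60, K70 and K105. The RC/RC mice lay below all 8 others. Insrr fell from WT to RC/RC (log2 fold change -1.03 ± 0.19 SE, edgeR adjusted p = 0.00805) and rose from RC/RC to RC/RC:Casp1KO (1.29 ± 0.21, adjusted p = 0.00986), and both calls held in each of the 8 fits that left out 1 mouse. Slc4a9 was at 85.2, 89.4, 94.3 and 126 CPM in WT mice, at 70.1, 39.4, 37.8 and 57.3 in RC/RC mice and at 67.6, 114, 102 and 127 in RC/RC:Casp1KO mice. It fell to RC/RC (-0.96 ± 0.22, adjusted p = 0.0187) and rose from RC/RC to RC/RC:Casp1KO (1.01 ± 0.24, adjusted p = 0.0317), where RC/RC mouse R105 and RC/RC:Casp1KO mouse K42 overlapped. That rise held in 3 of the 8 fits that left out 1 mouse (adjusted p from 0.0213 to 0.0889), with no call without RC/RC mouse R139 or R140 or without RC/RC:Casp1KO mouse K60, K70 or K105, and the fall held in 6 of 8, with no call without RC/RC mouse R140 (or WT mouse W6). With library size alone and with limma the rise was not called either (adjusted p up to 0.0523).

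**Figure D5:**
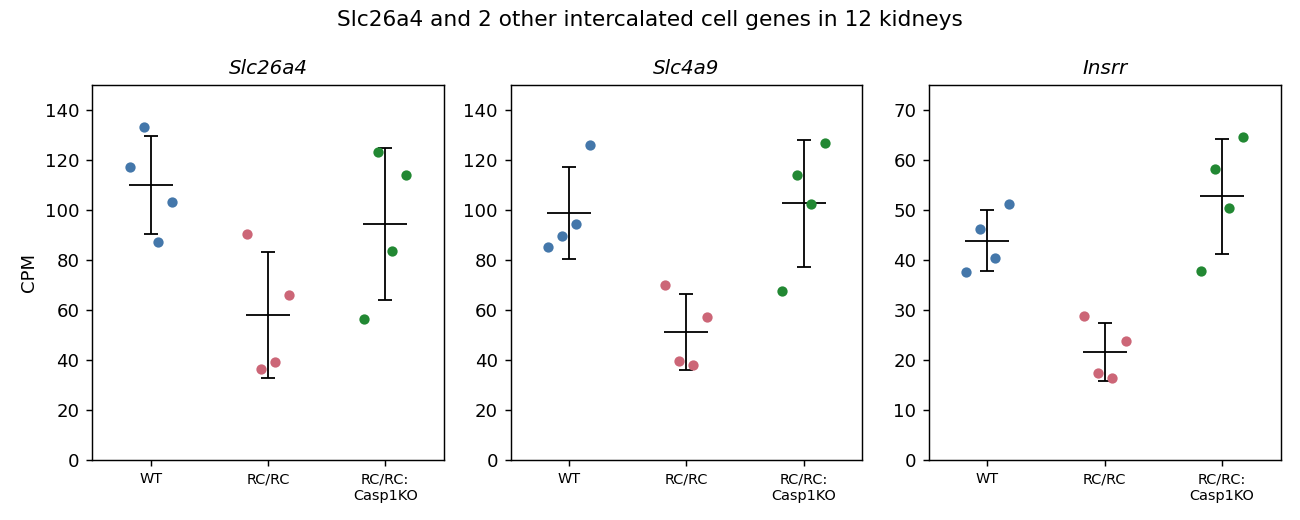
CPM (y axes from 0, each panel with its own range) of Slc26a4, Slc4a9 and Insrr in each mouse (points), with the group mean and SD (bars, n = 4). The mean of the RC/RC mice is the lowest of the 3 groups in each panel, and for Insrr all 4 RC/RC mice, at 16.4 to 28.8 CPM, lie below the other 8.

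Uncalled genes of that list included Rhcg, Kit, Rhbg and Oxgr1. Rhcg, the apical ammonia channel, was at 138 CPM in WT, 129 in RC/RC and 141 in RC/RC:Casp1KO, and Kit at 30.8, 27.3 and 29.4 CPM. Rhbg, the basolateral ammonia channel, was at 65.6, 41.9 and 46.7 CPM, and Oxgr1, the 2-oxoglutarate receptor of type B cells, at 48.3, 25.1 and 32.0 CPM, with an edgeR adjusted p of 0.0692 from WT to RC/RC. None of these 4 passed the test in any comparison.

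Neighbouring segments were set beside the set. Of 10 principal cell markers tested, edgeR called 0 in each comparison (5, 2 and 1 at an unadjusted p under 0.05, beside the 29.2%, 31.7% and 21.8% of all genes), with medians of 0.57 in RC/RC against WT, -0.12 in RC/RC:Casp1KO against RC/RC and 0.41 in RC/RC:Casp1KO against WT. The water channel Aqp2 was at 289 CPM in WT, 600 in RC/RC and 393 in RC/RC:Casp1KO (adjusted p = 0.0739 from WT to RC/RC). Their summed level was 1243 ± 364 CPM in WT, 1720 ± 189 in RC/RC and 1460 ± 281 in RC/RC:Casp1KO. The 10 intercalated cell genes summed to 1377 ± 442 CPM in WT, 965 ± 95.5 in RC/RC and 1051 ± 153 in RC/RC:Casp1KO. For both sums the groups overlapped, the 10 genes running from 931 to 1907 CPM in WT and from 896 to 1101 in RC/RC mice. Of 8 distal and thick limb markers 3 fell in RC/RC against WT (Calb1, Slc12a3 and Pvalb), with a median of -0.70. Slc12a3, the thiazide-sensitive cotransporter, went from 978 to 241 CPM (-2.03 ± 0.33 SE, adjusted p = 0.00444) and was 1.44 higher on the log2 scale in RC/RC:Casp1KO than in RC/RC (adjusted p = 0.0454), a call held in 2 of the 8 fits that left out 1 mouse, and Calb1 fell in RC/RC:Casp1KO against WT (adjusted p = 0.0449, held in 1 of 8). Of 8 proximal tubule markers 2 fell in RC/RC against WT (Slc5a2 and Cubn, median -0.84, held in 6 and 4 of the 8 fits that left out 1 mouse, and neither without R140 or W6) and 2 rose in RC/RC:Casp1KO against RC/RC (Lrp2 and Cubn, median 0.71, both held in all 8), with 0 called against WT by edgeR (2 at an unadjusted p under 0.05).

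Further acid-base and ammonia genes, several of them active in the proximal tubule, were also listed. Of 11 tested, edgeR called 0 in RC/RC against WT (3 at an unadjusted p under 0.05, median -0.34), 1 rose in RC/RC:Casp1KO against RC/RC (median 0.24) and 0 were called in RC/RC:Casp1KO against WT (1 at an unadjusted p under 0.05, median -0.04). The one that rose was Slc4a7, a sodium-bicarbonate cotransporter known in the kidney from the thick limb and intercalated cells rather than the proximal tubule, from 13.2 to 18.9 CPM (0.52 ± 0.13 SE, adjusted p = 0.0393), and its call held in 1 of the 8 fits that left out 1 mouse. Slc4a4, the main basolateral bicarbonate exit of the proximal tubule, was at 1207 CPM in WT, 652 in RC/RC and 1105 in RC/RC:Casp1KO without passing the test.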

How the data were processed

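Poly(A) mRNA libraries from 12 kidneys were sequenced for the authors, whose processing notes name CASAVA 1.8, STAR and mm10. The counting tool, annotation and strand setting are not given in the sources used here. The deposited table holds raw read counts per gene and mouse with gene lengths. Its other columns (FPKM, group means, the authors' fold changes and p-values) were not used. Column names give the genotype and a mouse number but not sex or replicate. Sex was not inferred from the counts, so it was not a term in the fits and stays in the spread within groups. Nothing beyond separate mice is assumed of the replicates.

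The 10 genes, the gene lists and the rule for named genes (every member, up to 4 called and 2 abundant uncalled genes per list, subunit partners, and 5 genes most like each of Atp6v1b1, Foxi1 and Atp4a) were chosen with earlier results of these data known. Among genes named outside this rule were Rhcg, Kit, Rhbg and Oxgr1, and those near Atp4a and Pkd1. Each pair of groups was tested on the counts with edgeR 4.0.16 in R 4.3.3 (filterByExpr, TMM, quasi-likelihood test, Benjamini-Hochberg adjustment over all genes tested). CPM used TMM factors of all 12 libraries, log2 CPM a prior count of 2, and FPKM the deposited gene length. The test was tried on simulated counts with 200 changed genes. Alternatives were DESeq2 1.42.0, limma 3.58.1 on log2(FPKM + 1), other scalings and filters, 1 fit of all 12 mice, and leaving out each mouse. Depth limits genes with few reads, such as Atp12a with 4 to 20 reads in WT mice. A few genes of the lists are counted in the list totals but are not reported here by name.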

Additional observations from a re-analysis of the deposited data

Results flagged for a closer look

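In 2 of the 30 groups of 4 mice checked (10 genes in 3 groups), 1 mouse stood farther from the rest than Dixon's 95% limit allows. Chance gives about 1 in 20. Slc4a1 in WT mouse W2 was at 282.6 CPM while the other WT mice lay between 60.68 and 93.48 CPM, a gap of 0.852 of the group's range. Atp4a in RC/RC mouse R143 was at 13.36 CPM while the other RC/RC mice lay between 1.157 and 2.559 CPM, a gap of 0.885 of the range. In both cases the value without that mouse is given with the result.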

How the results depend on the processing

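Atp4a was called against WT in both RC/RC groups under all 7 alternatives (log2 fold change -3.97 to -3.32 in RC/RC and -4.39 to -3.31 in RC/RC:Casp1KO) and in all 8 fits without 1 mouse (-5.33 to -3.64 and -4.56 to -4.14). The number of the 10 genes called in RC/RC against WT was 1, but 3 with DESeq2 and 2 with all 12 mice in one fit, and 1 to 2 when 1 mouse was left out. The added genes were Atp6v0a4 and Slc26a4. The number stayed at 0 in RC/RC:Casp1KO against RC/RC and at 1 in RC/RC:Casp1KO against WT. No paired analysis was possible because the columns carry no replicate numbers. The groups hold different mice, and the sources used here describe no pairing of mice between groups.

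Signs reversed for genes that were not called. From WT to RC/RC, Aqp6 was 0.0523 with library size alone and 0.257 with limma and ran from -0.292 to 0.573 with 1 mouse left out (positive without W2 or R143), and Atp6v1g3 ran from -0.525 to 0.0928 (positive without W2). From RC/RC to RC/RC:Casp1KO, Atp4a was 0.0139 with limma and ran from -0.730 to 0.98 (positive without R143), Atp6v0d2 from -0.202 to 0.0458 (positive without R105, R139, K42 or K70) and Foxi1 from -0.254 to 0.0233 (positive without K42). From WT to RC/RC:Casp1KO, Atp6v1b1 was 0.00202 with library size alone and 0.0118 with limma and ran from -0.291 to 0.0128, and Aqp6 ran from -0.631 to 0.24 (both positive without W2). The cause was not tested.

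Among genes outside the set, some calls were lost under other settings. From RC/RC to RC/RC:Casp1KO, C1qa and Slc4a7 were each called in 3 of 7, and C1qb, Mmp9, Slc12a3 and Slc4a9 in 5 of 7. From WT to RC/RC:Casp1KO, Calb1 and Hba-a1 were called in 4 of 7 and Hbb-bs in 5 of 7, and from WT to RC/RC Cubn in 6 of 7. Of genes at low levels, limma on log2(FPKM + 1) gave smaller changes: 0.84 for Atp12a and 0.78 for Casp1 from WT to RC/RC, and -1.19 for Casp1 from RC/RC to RC/RC:Casp1KO, all called.

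Counts over all genes moved more. DESeq2 called 3018, 3182 and 1390 genes in RC/RC against WT, RC/RC:Casp1KO against RC/RC and RC/RC:Casp1KO against WT, beside 1971, 1797 and 311. Leaving out 1 mouse gave 1162 to 2440, 438 to 2789 and 108 to 547. Between the RC/RC groups library size alone called 993 and limma 1052, and in RC/RC:Casp1KO against WT a minimum of 10 counts in every mouse left 167. With library size alone the share of calls that were higher was 86.1%, 82.0% and 79.8%, beside 75.4%, 62.1% and 55.9%, and the median of all genes from WT to RC/RC:Casp1KO was 0.14 in place of 0.01 on the log2 scale.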
